A study of Rattus norvegicus with 28 samples.

Results

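GABA-A receptor subunits are the building blocks of the main inhibitory receptor of the brain. The 7 described here are the genes of the deposited count table whose name is Gabra2, Gabra3, Gabra4, Gabra5, Gabrb1, Gabrb2 or Gabrd, out of 36387 annotated genes and assembled transcripts. All 7 passed the filter on low counts that left 17404 genes to test, as did 10 of the 12 other subunit genes in a list of 19. The tissue was the prefrontal cortex, taken 24 h after intraperitoneal injections from adult male rats of the Sprague-Dawley stock that had arrived at 8 weeks of age. Every animal received 5% Tween-80 with or without ketanserin and saline with or without psilocybin, so the vehicle group had both carriers and no drug. There were 7 groups of 4 libraries. Beside vehicle, psilocybin was given without ketanserin, ketanserin without psilocybin, and the pair in combination, each at a lower dose of 1 mg/kg and a higher dose of 3 mg/kg, with equal doses of the drugs in the combination. The sample protocol puts the ketanserin injection before the psilocybin injection, whereas the series text calls the combination simultaneous. Psilocybin is converted to psilocin, a serotonin receptor agonist, and ketanserin is an antagonist of the serotonin 2A receptor, so the design asks what each drug leaves behind a day later and whether ketanserin alters the effect of psilocybin.

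A GABA-A receptor is a ring of 5 subunits around a chloride channel, and its subunit mixture sets where it sits and how it responds. The genes Gabra2, Gabra3, Gabra4 and Gabra5 encode alpha subunits, which help form the GABA site. Gabrb1 and Gabrb2 encode beta subunits, which the receptor needs to assemble and to bind GABA, and Gabrd encodes the delta subunit. Receptors with alpha-4 and delta, and many with alpha-5, lie outside synapses and carry tonic inhibition, while alpha-2 and alpha-3 receptors are largely synaptic. In cortex these channels set the excitability of pyramidal cells, the cells that also carry most serotonin 2A receptors.

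The libraries held 12783067 to 18538414 counts (median 15366978), and none was a copy of another. Replicate 4 of the 3 mg/kg combination lay apart from the other 27 libraries, with 19602 annotated features at a count of 0 against 15344 to 16657. Libraries differed along an axis tied to gene length. For each library, the Spearman rho across all 17404 tested genes between a gene's deviation from its mean and its annotated length ran from -0.323 to 0.283, and these values overlapped between all groups. This value is called the length tilt of a library below. Cortical neuron genes marked the tissue, with Nrgn, a postsynaptic protein of excitatory neurons, at a mean of 2330 and Slc17a7, their vesicular glutamate transporter, at 853 FPKM (fragments scaled by gene length and library size). In bulk tissue, fewer cells of a type and less RNA per cell cannot be told apart. The labels call the libraries biological replicates without saying whether each is 1 animal, so p-values measure the spread between these samples.

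On build rn6, 3 of the 7 genes lay in a cluster on chromosome 14 that spanned 1155 kb: Gabrb1 (ENSRNOG00000002327, chr14:38643385-39112600, minus strand), Gabra4 (ENSRNOG00000002336, chr14:39154529-39231695, plus strand) and Gabra2 (ENSRNOG00000002349, chr14:39661968-39798302, plus strand). Between Gabrb1 and Gabra4, which point away from each other, lay 41928 bases, and between Gabra4 and Gabra2 lay 430272 bases. The other members were Gabra3 (ENSRNOG00000056558, chrX:152414615-152642531, minus strand), Gabra5 (ENSRNOG00000010803, chr1:112833975-112947173, minus strand), Gabrb2 (ENSRNOG00000003680, chr10:27973681-28187565, plus strand) and Gabrd (ENSRNOG00000016385, chr5:172797450-172809353, minus strand). Each value below is a count over the whole annotated gene, not over an exon or a transcript form.

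Promoters of 6 of the 7 members (all but Gabra2) were found in RefSeq's table on build GRCr8, each with 250 bases before and 50 after the annotated start. The 4 shown belong to the members whose levels differ most in how they vary. Gabra3 (chrX:155543821-155544120, minus strand) followed the length tilt of the libraries most closely and Gabrd (chr5:171252660-171252959, minus strand) ran against it, while the beta subunit genes Gabrb1 (chr14:36902844-36903143, minus strand) and Gabrb2 (chr10:27439543-27439842, plus strand) differed from each other. Capitals mark GC boxes (GGGCGG on either strand) in Gabrd, and in Gabrb1 and Gabrb2 the stretches of at least 10 bases that the pair shares.
Gabra3: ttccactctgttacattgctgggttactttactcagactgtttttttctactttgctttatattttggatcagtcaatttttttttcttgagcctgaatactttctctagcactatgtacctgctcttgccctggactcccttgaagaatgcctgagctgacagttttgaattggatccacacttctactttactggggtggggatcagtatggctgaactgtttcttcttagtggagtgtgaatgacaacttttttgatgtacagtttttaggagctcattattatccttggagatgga
Gabrb1: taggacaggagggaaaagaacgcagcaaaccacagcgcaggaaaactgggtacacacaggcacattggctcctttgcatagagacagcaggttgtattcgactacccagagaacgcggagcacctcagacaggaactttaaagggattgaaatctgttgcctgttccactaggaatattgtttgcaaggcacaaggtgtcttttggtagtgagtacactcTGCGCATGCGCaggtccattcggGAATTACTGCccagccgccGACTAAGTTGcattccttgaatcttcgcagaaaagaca
Gabrb2: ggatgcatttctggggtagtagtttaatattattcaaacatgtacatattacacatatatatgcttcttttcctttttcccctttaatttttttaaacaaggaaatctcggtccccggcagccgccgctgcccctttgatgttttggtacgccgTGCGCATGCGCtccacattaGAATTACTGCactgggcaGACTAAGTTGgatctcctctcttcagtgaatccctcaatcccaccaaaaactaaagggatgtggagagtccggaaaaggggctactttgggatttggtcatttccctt
Gabrd: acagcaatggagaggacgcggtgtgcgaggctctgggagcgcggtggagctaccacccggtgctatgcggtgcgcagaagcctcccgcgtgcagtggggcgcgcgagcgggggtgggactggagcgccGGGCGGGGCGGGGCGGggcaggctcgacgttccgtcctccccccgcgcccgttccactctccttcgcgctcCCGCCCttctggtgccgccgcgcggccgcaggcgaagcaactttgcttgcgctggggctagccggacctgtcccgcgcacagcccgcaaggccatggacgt

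The Gabrd promoter was 73.7% G or C with 40 CpG dinucleotides and 4 GC boxes, 3 of them overlapping in a row. Of the 33469 promoters in the table, 33.1% held a GC box and 8.97% held 3 or more, and the medians were 51.7% G or C and 7 CpG. The extrasynaptic alpha genes had promoters of the same kind, with 70.7% G or C, 35 CpG and 1 GC box in Gabra4, and 76.3%, 42 and 1 in Gabra5. The Gabra3 promoter was 39.3% G or C with 0 CpG, 0 GC boxes and 1 TATAAA on either strand, a motif in 14.2% of promoters. Gabrb2 had 44.0% G or C with 9 CpG and Gabrb1 had 49.3% with 11, neither with a GC box. None of the 6 windows held TGACGTCA, the full cAMP response element, or GCGTGGGCG, the Egr site, on either strand, and among all promoters 1.83% and 0.544% did.

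The Gabrb1 and Gabrb2 windows shared 3 stretches in the same order, TGCGCATGCGC, GAATTACTGC and GACTAAGTTG. On either strand these stood in 200, 13 and 5 of the 33469 promoters (0.598%, 0.0388% and 0.0149%), and the only 2 promoters with all 3 were those of Gabrb1 and Gabrb2 themselves. The first began at position -30 of Gabrb1 and at position -96 of Gabrb2, counting the RefSeq start as 0. The stretches were searched for after the sequences had been seen. A match of letters is a description and shows no binding.

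Per length, Gabrd was the most abundant of the 7 members in vehicle cortex and the beta subunit genes were the least. Gabrd stood at 40.1, 54.3, 43.9 and 52.8 FPKM in the 4 vehicle libraries, a mean of 47.8 ± 6.89 (SD, n = 4). Gabra5 stood at 34.2, 31.4, 26.3 and 27.4 (mean 29.8 ± 3.67), and Gabra4 at 23.7, 18.4, 25.2 and 19.6 (mean 21.7 ± 3.21). These 3, which serve extrasynaptic receptors, did not overlap with each other, and Gabrd exceeded Gabra5, and Gabra5 exceeded Gabra4, in 28 of 28 libraries.

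The synaptic alpha genes and the beta genes followed, and from Gabra4 downward the ranges of neighbours in the order overlapped. Gabra3 had a mean of 17.0 ± 7.61 FPKM and Gabra2 one of 12.1 ± 6.25 (SD, n = 4 each). Gabrb2 had 5.99 ± 5.17 and Gabrb1 had 3.95 ± 1.45. Over all 28 libraries Gabra4 was above Gabra3 in 22, Gabra3 above Gabra2 in 27, Gabra2 above Gabrb2 in 28 and Gabrb2 above Gabrb1 in 20, so the place of the 2 beta genes was the least settled. The 7 members together made up 52.2 to 64.4% (median 56.7%) of the FPKM summed over the 19 listed subunit genes. In vehicle, Gabrd alone made up 19.8% ± 5.50 of that sum (SD, n = 4). Among the 4 alpha members alone, Gabra5 held a median share of 39.3% (28.1 to 52.3%), Gabra4 26.3% (20.3 to 36.0%), Gabra3 19.9% (7.99 to 26.7%) and Gabra2 14.8% (7 to 22.8%). Of the 2 beta members Gabrb2 held a median of 55.1%, but 16.2 to 72.8% by library.

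**Figure D1:**
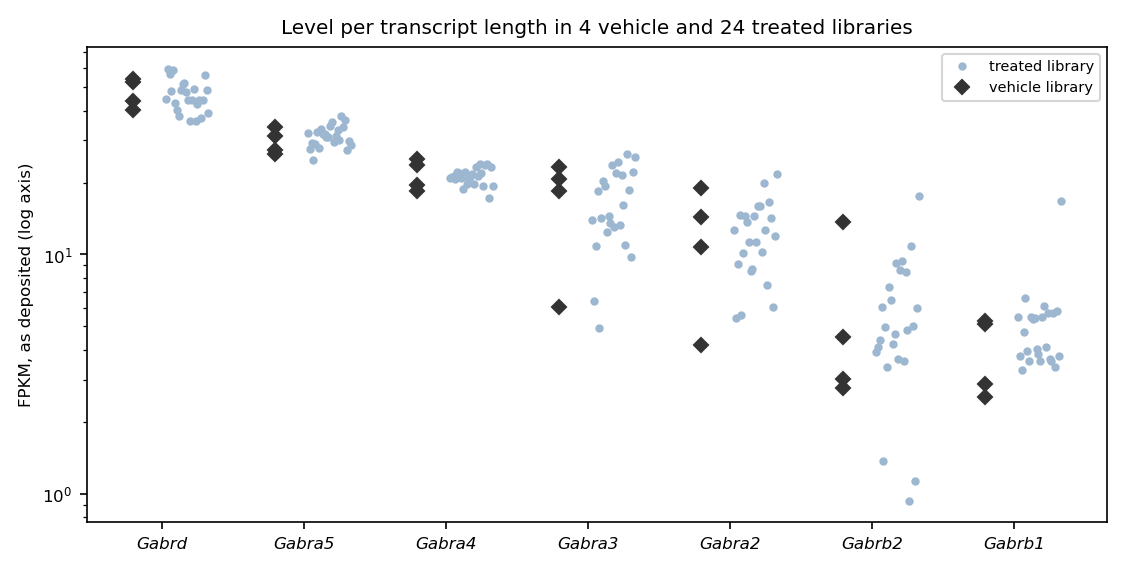
FPKM of each subunit gene on a log axis, in the 4 vehicle libraries (dark diamonds) and the 24 treated libraries (light points), in the order of the vehicle mean. Gabrd, Gabra5 and Gabra4 form narrow bands from the vehicle mean of 47.8 down to 21.7 FPKM, whereas Gabrb2 runs from 0.933 to 17.6 FPKM over all libraries.

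The 7 genes fell into a steady and a variable kind. Over 28 libraries the highest library was 1.47 times the lowest for Gabra4, 1.52 times for Gabra5 and 1.65 times for Gabrd in CPM (counts scaled to library size). It was 5.09 times for Gabra2, 5.38 for Gabra3, 6.50 for Gabrb1 and 18.6 for Gabrb2. Without replicate 4 of the 3 mg/kg combination it was 2.60 for Gabrb1 and 14.7 for Gabrb2. The coefficients of variation were 9.24, 10.4 and 14.8% for Gabra4, Gabra5 and Gabrd and 36.5, 36.6, 50.6 and 63.8% for Gabra2, Gabra3, Gabrb1 and Gabrb2, and that of Gabrb1 was 24.4% over the other 27 libraries. Counting error at each gene's depth would by itself give 2.62 to 8.29%. The group a library belonged to held 33.2% of the variance of log2 CPM in Gabrd, 29.0% in Gabra5, 13.4% in Gabrb1, 13.0% in Gabra3, 8.17% in Gabra2, 6.45% in Gabra4 and 4.94% in Gabrb2, the last being 9.36% without that library. The median over all tested genes was 18.5%, and 7 groups of 4 hold 22.2% of the degrees of freedom.

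**Figure D2:**
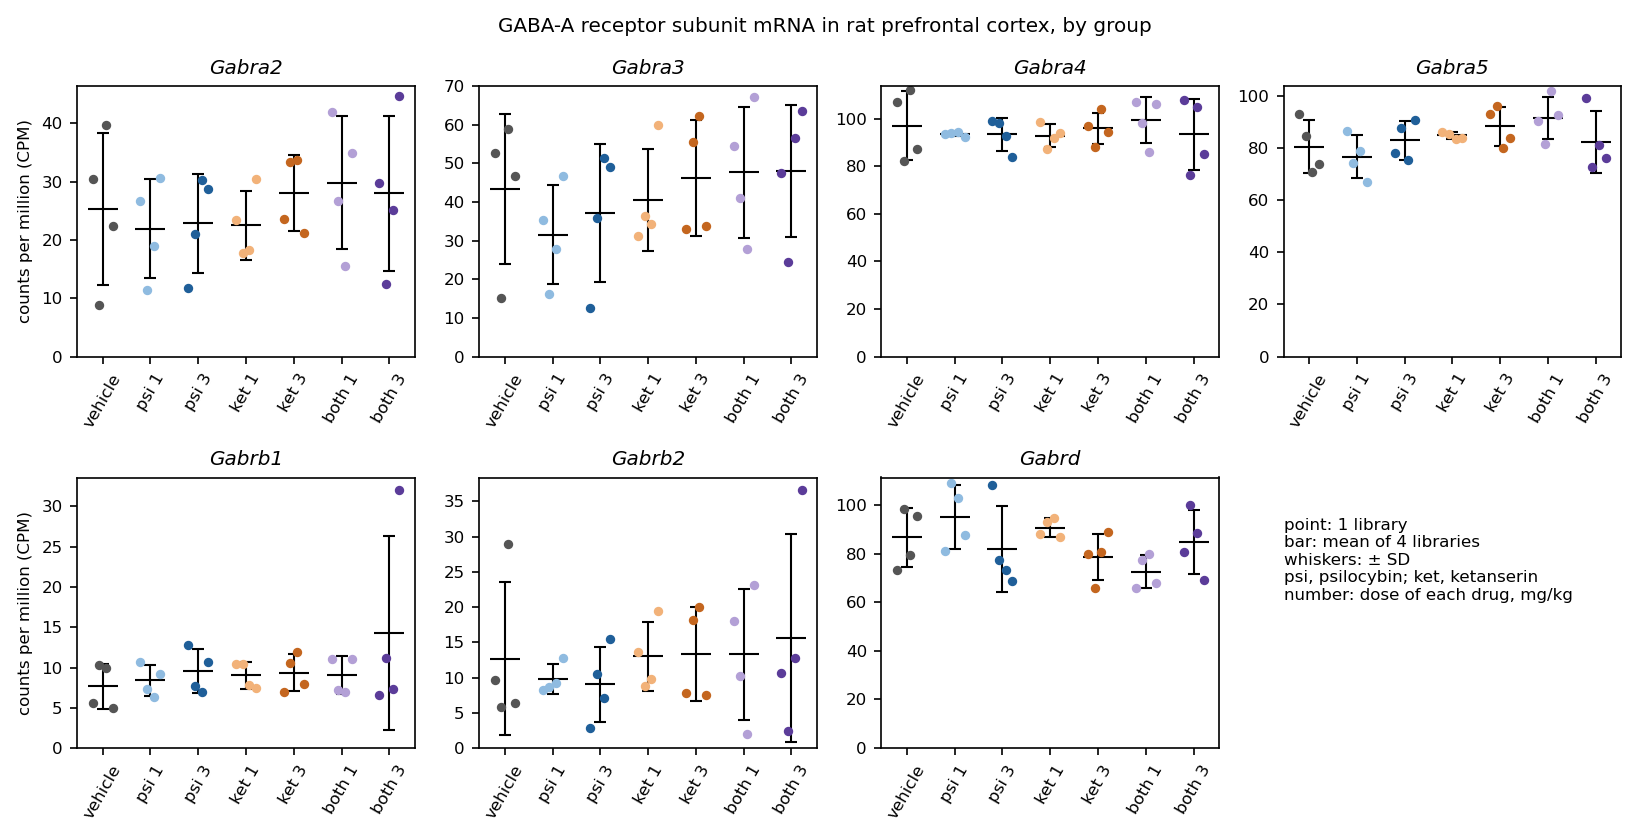
Library-scaled counts (CPM) of each gene in each library, with the mean and SD of the 4 libraries of a group (psi, psilocybin; ket, ketanserin; the number is the dose of each drug in mg/kg). Gabra4 stays between 76.5 and 112 CPM, whereas Gabrb2 runs from 1.97 to 36.6. On the log2 scale Gabrb2 has the widest spread inside the groups (SD 1.07), while in CPM the SD of Gabra3 is larger in every group.

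Gabrd, which encodes the delta subunit of tonic receptors, stood at 73.2, 98.4, 79.5 and 95.5 CPM in vehicle. It stood at 80.9, 109, 103 and 87.6 with psilocybin at 1 mg/kg, and at 108, 77.4, 73.1 and 68.6 at 3 mg/kg. At the higher dose 3 libraries lay low and replicate 1, which also had the most negative length tilt of all, lay high. With ketanserin Gabrd stood at 87.9, 93.1, 94.5 and 86.8 CPM at 1 mg/kg and at 79.8, 65.8, 80.6 and 88.7 at 3 mg/kg. With the combination it stood at 65.9, 77.2, 79.6 and 67.7 CPM at 1 mg/kg and at 80.6, 100, 88.3 and 69.2 at 3 mg/kg. The 1 mg/kg combination had the lowest group mean, 72.6 ± 6.80 (SD, n = 4), and all its 4 libraries lay below all 4 of psilocybin alone and all 4 of ketanserin alone at that dose.

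Gabra4, which encodes the partner of delta in many extrasynaptic receptors, kept to 76.5 to 112 CPM (median 94.2). Its group means ran only from 92.9 to 99.4 CPM, and psilocybin at 1 mg/kg had the tightest group, with 93.6, 93.9, 94.6 and 92.3. Gabra5, the alpha subunit of another extrasynaptic receptor, kept to 67.0 to 102 CPM (median 84.0). It was lowest with psilocybin at 1 mg/kg, at 86.5, 74.3, 78.9 and 67.0, and highest with the combination at 1 mg/kg, at 90.3, 81.6, 102 and 92.7. Those groups overlapped through the 86.5 of the former and the 81.6 of the latter.

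Gabra3 encodes an alpha subunit of synaptic receptors. It stood at 52.7, 15.2, 58.8 and 46.7 CPM in vehicle, at 35.3, 16.3, 27.8 and 46.8 with psilocybin at 1 mg/kg, and at 12.5, 36.0, 51.3 and 49.1 at 3 mg/kg. It stood at 31.3, 36.5, 34.3 and 60 with ketanserin at 1 mg/kg and at 33, 55.6, 62.4 and 33.7 at 3 mg/kg, and at 54.6, 41.1, 27.9 and 67.3 with the combination at 1 mg/kg and 47.5, 24.6, 56.5 and 63.5 at 3 mg/kg. Every group thus held libraries with high and with low Gabra3, and all groups overlapped. Gabra2, which encodes the alpha subunit common at the axon initial segment of pyramidal cells, ran from 8.77 CPM in vehicle replicate 2 to 44.6 in replicate 4 of the 3 mg/kg combination, and within vehicle alone it stood at 30.4, 8.77, 39.7 and 22.4. With psilocybin it stood at 26.6, 11.4, 19 and 30.6 at 1 mg/kg and at 11.7, 21, 30.2 and 28.7 at 3 mg/kg. With ketanserin it stood at 23.5, 17.8, 18.2 and 30.5 at 1 mg/kg and at 23.6, 33.4, 33.7 and 21.2 at 3 mg/kg, and with the combination at 41.9, 26.7, 15.5 and 34.9 at 1 mg/kg and at 29.8, 12.4, 25.2 and 44.6 at 3 mg/kg. As with Gabra3, the vehicle range covered most treated libraries.

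Gabrb1 and Gabrb2 were the least abundant members, with median counts of 141.5 and 152 per library. Gabrb1 stood at 5.61, 10.3, 9.91 and 4.94 CPM in vehicle and at 6.58, 11.2, 7.32 and 32.1 with the combination at 3 mg/kg. The 32.1 belongs to replicate 4, the library that lay apart, and in the other 27 libraries Gabrb1 reached at most 12.8. The remaining groups all lay between 6.39 and 12.8, with means of 8.41 ± 1.91 and 9.53 ± 2.74 CPM for psilocybin at 1 and 3 mg/kg, 9.06 ± 1.67 and 9.35 ± 2.28 for ketanserin, and 9.08 ± 2.33 for the combination at 1 mg/kg (SD, n = 4 each). Gabrb2 stood at 9.67, 5.87, 28.9 and 6.38 CPM in vehicle, where replicate 3 alone was high. It stood at 8.31, 8.72, 9.28 and 12.8 with psilocybin at 1 mg/kg and at 2.91, 10.5, 7.14 and 15.5 at 3 mg/kg. With ketanserin it stood at 13.7, 8.88, 9.78 and 19.5 at 1 mg/kg and at 7.76, 18.2, 20 and 7.56 at 3 mg/kg. With the combination it stood at 18, 10.2, 1.97 and 23.1 CPM at 1 mg/kg and at 10.6, 2.36, 12.8 and 36.6 at 3 mg/kg, so that the lowest and highest values of all 28 libraries fell in the combination groups.

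None of the 7 subunit genes passed the test against vehicle in any treated group. Under edgeR's quasi-likelihood test, a call needed an adjusted p under 0.05, with Benjamini-Hochberg adjustment over all 17404 genes. With psilocybin 0 of 7 members were called at either dose, and of all genes 0% were. With ketanserin 0 of 7 were called at either dose, again with 0% of all genes. With the combination 0 of 7 were called at 1 mg/kg (0% of all genes) and 0 of 7 at 3 mg/kg, where 0.00575% of all genes, a single gene, were. At an unadjusted p under 0.05, 1 member stood out, Gabrb1 with the 3 mg/kg combination. The share of all genes at that threshold was 1.66% and 3% for psilocybin at 1 and 3 mg/kg, 2.06% and 2% for ketanserin, and 1.3% and 3.13% for the combination.

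The width of the intervals set what these comparisons could show. Against vehicle the median half-width of the 95% interval of the log2 fold change was 0.22 for Gabra4, 0.22 for Gabra5 and 0.28 for Gabrd. For Gabrb1, Gabra2 and Gabra3 it was 0.76, 0.84 and 0.87, and for Gabrb2 it was 1.38. These intervals belong to single tests, whereas a call was adjusted over 17404 genes. Changes of under about that size in the variable genes were thus not detectable here, and larger ones could also miss a call. Gabrb1 with the 3 mg/kg combination, at 0.89, had an adjusted p of 0.999 by edgeR. Gabra4 kept within -0.06 to 0.03 over the 6 treated groups, Gabra5 within -0.07 to 0.19 and Gabrd within -0.26 to 0.13, on the log2 scale. Gabra2 ran from -0.21 to 0.23, Gabra3 from -0.46 to 0.15 and Gabrb2 from -0.49 to 0.29. Without replicate 4 of the 3 mg/kg combination, the values of that group turned to -0.17 for Gabra2, -0.01 for Gabra3 and -0.56 for Gabrb2, and the Gabrd value turned to 0.05. The Gabra3 values with psilocybin were -0.46 at 1 mg/kg and -0.22 at 3 mg/kg, and each interval included 0. With the length tilt as a covariate they were -0.12 and 0.16, and the latter was also 0.06 without replicate 1 of its group.

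The Gabrb1 estimates were 0.13 to 0.89 in the 6 treated groups. These 6 comparisons share the vehicle libraries, and the lowest of them, with psilocybin at 1 mg/kg, was -0.03 without vehicle replicate 4 and -0.02 without replicate 1 of the psilocybin group. The largest, 0.89 with the 3 mg/kg combination (SE 0.368, 95% interval 0.13 to 1.65), had an unadjusted p of 0.0243 and an adjusted p of 0.999 by edgeR. It rested on the library that lay apart, since without replicate 4 of that group the difference was 0.12 with an unadjusted p of 0.672.

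**Figure D3:**
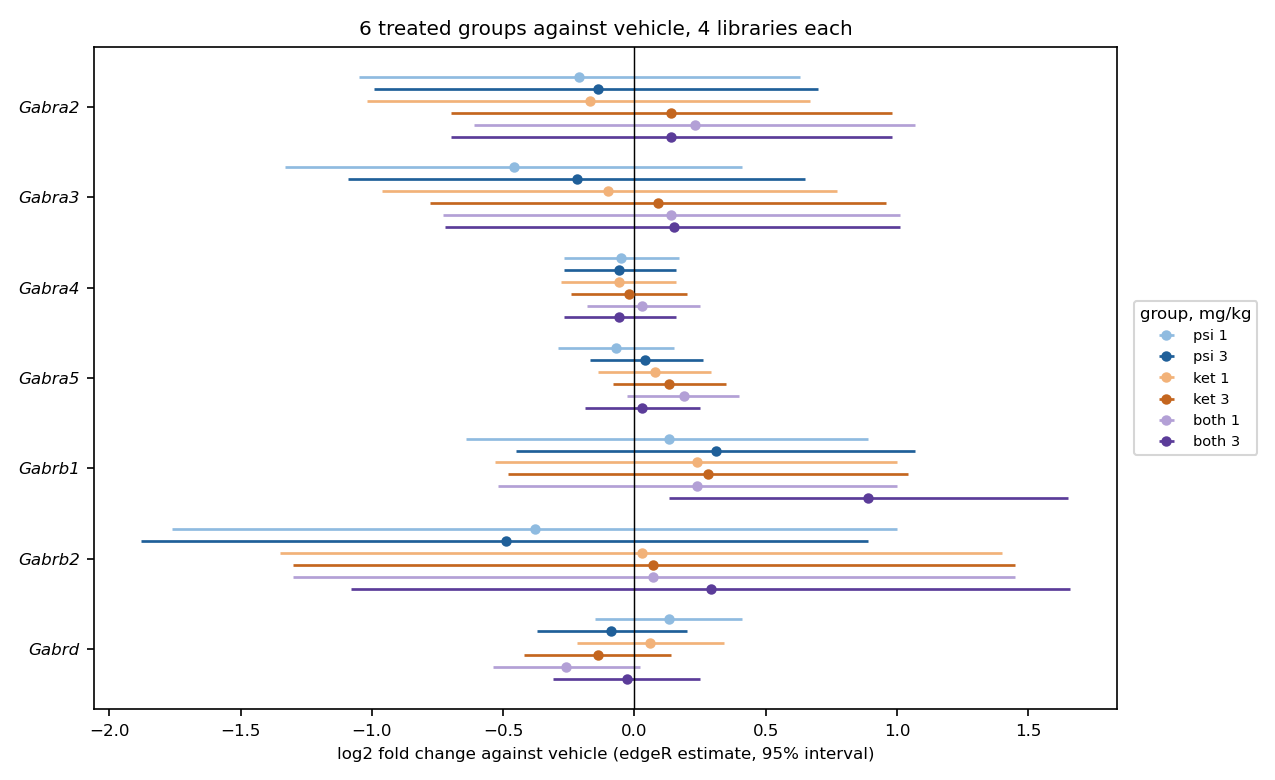
Log2 fold change of each gene in the 6 treated groups against vehicle, as edgeR's estimate with its 95% interval (psi, psilocybin; ket, ketanserin; doses in mg/kg). The intervals of Gabra4, Gabra5 and Gabrd are narrow around 0, those of Gabrb2 are the widest, and the only interval that leaves 0 out is that of Gabrb1 with the combination at 3 mg/kg, at 0.13 to 1.65.

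The combination was next set against each drug alone, the comparison that asks what ketanserin adds to psilocybin and the reverse. None of the 7 members was called, and 0% of all genes were called in any of these 4 comparisons. At 1 mg/kg, Gabrd was lower with the combination than with psilocybin alone by an estimated -0.39 on the log2 scale (SE 0.136, 95% interval -0.67 to -0.11), with an unadjusted p of 0.00857 and an adjusted p of 0.894. The 4 combination libraries, at 65.9 to 79.6 CPM, lay below the 4 psilocybin libraries at 80.9 to 109, as they did for 1.73% of all genes in that direction. Gabra5 lay on the other side, at 0.26 (unadjusted p 0.0230, adjusted p 0.894), with overlapping groups, and leaving out 1 library at a time gave 0.20 to 0.33 with unadjusted p up to 0.0933. These 2 of 7 members had an unadjusted p under 0.05, where 4.13% of all genes did. Without replicate 2 of the psilocybin group, the Gabrd difference was -0.31 with an unadjusted p of 0.0436.

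Against ketanserin alone at 1 mg/kg, Gabrd again had the lower value with the combination, at -0.32 (SE 0.136, unadjusted p 0.0273, adjusted p 1). Leaving out 1 library at a time gave -0.36 to -0.28, with unadjusted p up to 0.0761. The groups did not overlap, at 65.9 to 79.6 against 86.8 to 94.5 CPM, as for 1.56% of all genes in that direction. Gabrd was the 1 member of 7 with an unadjusted p under 0.05, against 2.92% of all genes. Both comparisons share the combination libraries and so are not independent. At 3 mg/kg the Gabrd differences were 0.05 against psilocybin and 0.10 against ketanserin (0.14 and 0.19 without replicate 4 of the combination), and 0 of 7 members had an unadjusted p under 0.05, against 5.74% and 3.41% of all genes.

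The interaction asks whether the combination differs from the sum of what each drug does alone. For Gabrd it was -0.45 at 1 mg/kg (SE 0.193, unadjusted p 0.0268, adjusted p 0.938) and 0.19 at 3 mg/kg (SE 0.193, unadjusted p 0.334). Leaving out 1 library at a time, the interaction at 1 mg/kg was -0.54 to -0.37, with unadjusted p up to 0.0745. Whether the interaction differed between the doses was not tested. None of the 7 members was called at either dose, where 0% of all genes were, and 1 and 0 members had an unadjusted p under 0.05, against 4.09% and 3.2% of all genes. The length tilt moved with these Gabrd values, at -0.257 to 0.185 with psilocybin, -0.189 to 0.206 with ketanserin and -0.244 to 0.281 with the combination at 1 mg/kg, with group means of -0.0942, -0.0856 and 0.0598. The tilt as a covariate was an alternative added after the data had been seen. With it, Gabrd in the 1 mg/kg combination was at -0.28 against psilocybin (unadjusted edgeR p 0.0071) and -0.23 against ketanserin (0.0279). Against vehicle it was at -0.22 (unadjusted edgeR p 0.0313), beside -0.26 (0.0725) without the covariate. The interaction at 1 mg/kg was then -0.29 (unadjusted edgeR p 0.0442), still with no call in any of these. The interaction at 3 mg/kg was then 0.28 (unadjusted p 0.0479), that is, of the other sign and of like size, and it too was not called (adjusted p 1). The Gabrd dose contrasts were then -0.24 for psilocybin (unadjusted p 0.0164, adjusted p 0.739) and 0.20 for the combination (0.0423 and 0.889), and the test of any difference among the 7 groups had an unadjusted p of 0.0482 (adjusted p 1).

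Sums of marker genes of other cells and regions were set beside Gabrd. All 10 of 10 striatum markers were in the table and none was at 0 in every library, and their summed CPM was 369 to 417 with the 1 mg/kg combination against 418 to 564 with psilocybin alone and 386 to 504 with ketanserin alone. The 6 measured of 7 excitatory neuron markers summed to 5900 to 7530, 6430 to 7970 and 6840 to 7570 in the same order, with none at 0 in every library, and overlapped between the groups. Of these 6 genes, 3 lay above and 3 below 0 with the combination against psilocybin (median log2 fold change 0.06), and 4 above and 2 below against ketanserin (median 0.01). The 14 of 14 interneuron markers summed to 1430 to 2140, 1600 to 2310 and 1650 to 2310, also with overlap. Against psilocybin, 3 of the 13 tested interneuron genes lay above and 10 below 0 (median -0.19). Of the striatum genes 3 lay above and 7 below (median -0.12). The striatum sum against psilocybin was thus the 1 sum of the 3 lists that did not overlap, by a margin of 417 to 418, and against ketanserin it did. Over 28 libraries, which also share their length tilt, the Spearman rho of Gabrd with these sums was 0.735, 0.737 and 0.718. These were the highest values among all the lists summed. Next came the astrocyte sum with 0.691, at 3020 to 3400, 3400 to 3650 and 3350 to 3700 in the same order of groups. The olfactory bulb sum had a rho of -0.739, at 76.1 to 101, 64.3 to 92.3 and 76.6 to 96. Its most abundant gene per length, Reln at 6.22 FPKM, is also on the interneuron list. With the length tilt the olfactory bulb sum had a rho of 0.875. The striatum, excitatory neuron, interneuron and astrocyte sums had -0.729, -0.84, -0.967 and -0.516 with the tilt. The part of any of these lists in the Gabrd result was not tested.

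Dose made no detectable difference to the 7 genes. The contrasts of 3 with 1 mg/kg called 0 of 7 members and 0% of all genes for psilocybin, ketanserin and the combination alike, and 0 of 7 members had an unadjusted p under 0.05, against 3.24%, 1.64% and 3.3% of all genes. Gabrd was at -0.22, -0.20 and 0.22 in these contrasts and Gabrb1 at 0.18, 0.05 and 0.65, in each case with overlapping groups. Without replicate 4 of the 3 mg/kg combination, the Gabrb1 value for the combination turned to -0.12 and the Gabrd value was 0.31 (unadjusted p 0.0376, adjusted p 1). With both doses averaged against vehicle, 0 of 7 members were called for psilocybin (0% of all genes), ketanserin (0%) and the combination (0.00575%), and 0 of 7 had an unadjusted p under 0.05, against 1.96%, 2.1% and 1.8% of all genes. The averaged values of Gabra3 were -0.34, 0.00 and 0.14 (0.02, 0.18 and 0.08 with the tilt as a covariate), and those of Gabrd 0.02, -0.04 and -0.14.

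A test of any difference among the 7 groups called 0 of 7 members and 0.0172% of all genes, and 0 of 7 had an unadjusted p under 0.05, against 2.22% of all genes. Gabrd had the lowest unadjusted p in it, 0.141. Over all 19 comparisons and 133 tests of members, edgeR called 0, with adjusted p-values of 0.693 to 1, and 5 had an unadjusted p under 0.05. DESeq2 also called 0 with 5 under that threshold, and limma on log2(FPKM + 0.1) called 0 with 4.

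Some of the members shared part of their spread between libraries. Gabra3 followed the length tilt of the libraries, with a Pearson r of 0.887 and a Spearman rho of 0.956 over 28 libraries (permutation p 1e-05 for both, the smallest that 100000 permutations can give, and Benjamini-Hochberg adjusted 4e-05 and 5.6e-05 over 28 relations). Gabra2 did so with r 0.876 and rho 0.916 (adjusted permutation p 4e-05 and 5.6e-05) and Gabrb2 with r 0.792 and rho 0.797 (4e-05 and 8e-05). Gabrd ran the other way, with r -0.673 and rho -0.675 (adjusted permutation p 0.000436 for both). Without the 2 libraries farthest from the median tilt, r was 0.875 for Gabra3, 0.879 for Gabra2, 0.768 for Gabrb2 and -0.661 for Gabrd. Gabra4 had r 0.487 and rho 0.404 (adjusted permutation p 0.0213 and 0.0772), Gabra5 r 0.00455 and rho 0.0525 (0.982 and 0.792), and Gabrb1 r 0.202 and rho 0.0783 (0.422 and 0.792).

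The relation held inside groups as well. After the group means had been subtracted, rho with the tilt was 0.921 for Gabra3, 0.858 for Gabra2, 0.841 for Gabrb2 and -0.726 for Gabrd. Of the 15109 tested genes whose mean log2 CPM was 0 or more, 0.702% had a higher rho with the tilt than Gabra3. The share was 3.26% for Gabra2 and 10.9% for Gabrb2, whereas 83.3% were above Gabrd. The annotated length of a member did not order it on this axis, since Gabra2 at 2070 bases and Gabrb1 at 1926 are of like length and differed in rho, and Gabra4, the longest at 4419, had a rho of 0.404. The labels give no batch, extraction day or RNA quality value to set beside the tilt.

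**Figure D4:**
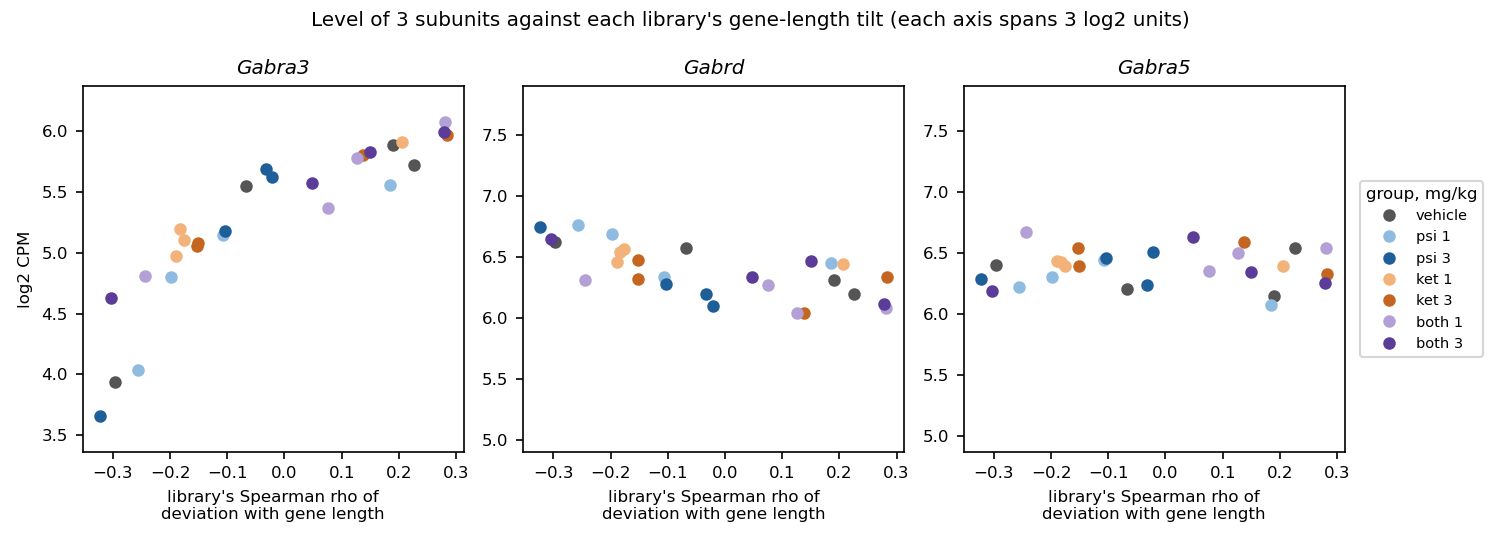
Log2 CPM of Gabra3, Gabrd and Gabra5 in each of 28 libraries against the length tilt of the library (its relation of gene-wise deviation to gene length), coloured by group, with each vertical axis spanning 3 log2 units. Gabra3 climbs with the tilt (rho 0.956), Gabrd declines (rho -0.675) and Gabra5 shows no trend (rho 0.0525), and the groups mix along the axis.

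Members with a like relation to the tilt also went together pairwise. Gabra2 and Gabra3, on different chromosomes, had r 0.924 and rho 0.901 (adjusted permutation p 4e-05 and 5.6e-05, and r 0.888 without the 2 farthest libraries). Gabrb2 had r 0.782 and rho 0.808 with Gabra2, and r 0.724 and rho 0.801 with Gabra3. Gabrd was opposed to Gabra2 (r -0.794, rho -0.772), Gabra3 (r -0.741, rho -0.697), Gabrb2 (r -0.544, rho -0.564) and Gabra5 (r -0.469, rho -0.478). These 7 of 21 pairs had a Spearman adjusted permutation p under 0.05, the largest of them 0.0271 for Gabra5 with Gabrd, which was -0.259 in rho after subtraction of group means. Such relations were not particular to the subunits, since 515 genes had a rho above 0.9 with Gabra3 and 236 with Gabra2. The share of all gene pairs under that threshold was not computed.

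The neighbours on chromosome 14 were set beside each other as well. Gabrb1 with Gabra4, the closest pair, had r -0.212 and rho -0.136 (adjusted permutation p 0.417 and 0.624). Gabra2 with Gabra4 had r 0.482 and rho 0.400 (0.0213 and 0.0772), and Gabra2 with Gabrb1 r 0.204 and rho 0.205 (0.418 and 0.459). The beta genes with the shared promoter stretches printed above, Gabrb1 and Gabrb2, had r 0.363 and rho 0.336 (0.108 and 0.152), and r was 0.106 without vehicle replicate 4 and replicate 4 of the 3 mg/kg combination.

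**Figure D5:**
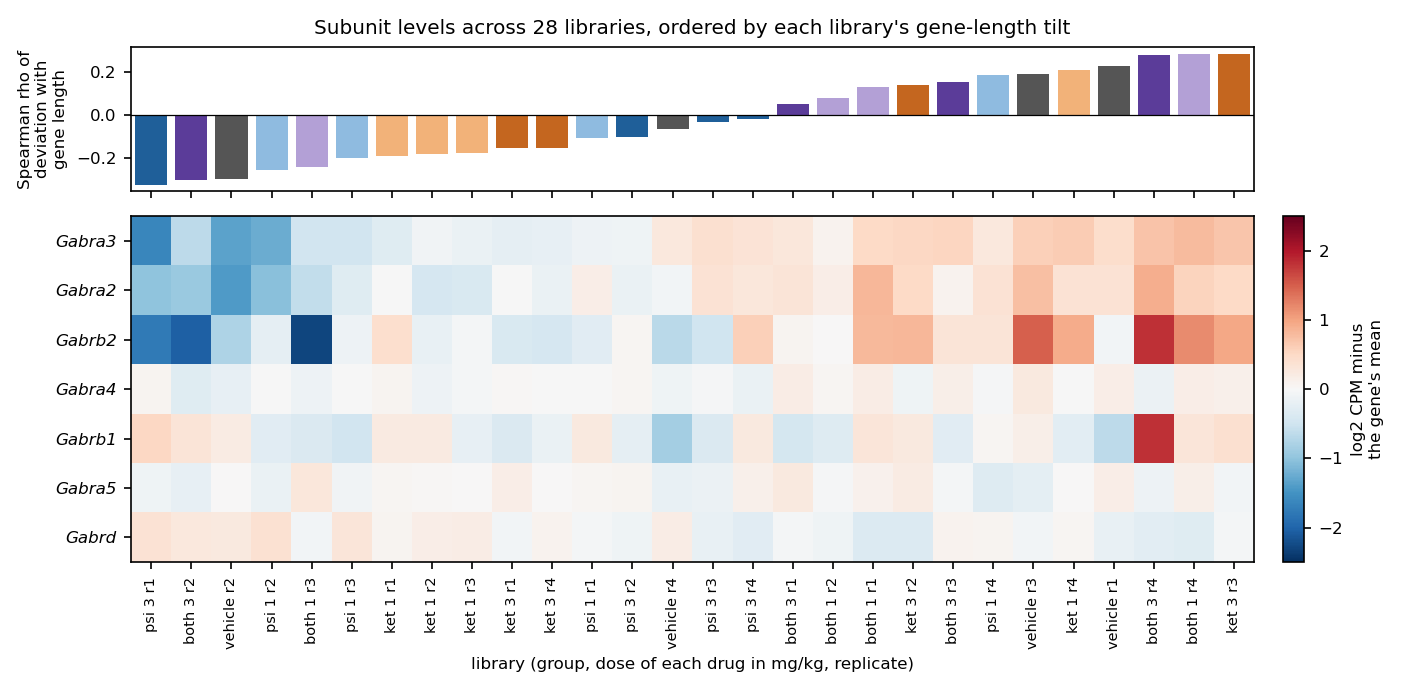
Log2 CPM of each gene minus its mean, in 28 libraries ordered by length tilt (bars, coloured by group as in the labels under the map). Gabra3, Gabra2 and Gabrb2 pass from below to above their mean along the order, Gabrd passes the other way, and libraries of the 7 groups are scattered along it.

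Ratios between subunit mRNAs were compared, a measure that needs no library scaling but does not remove the length tilt. Gabra2, Gabrb2 and Gabrd had a rho of 0.916, 0.797 and -0.675 with the tilt. The members they were divided by, Gabra5, Gabrb1 and Gabra4, had 0.0525, 0.0783 and 0.404. The part of the tilt in the ratios was not tested. On the FPKM scale the beta ratio, Gabrb2 to Gabrb1, ran from 0.194 to 2.68 (median 1.23) over 28 libraries, and the ratio of delta to its partner, Gabrd to Gabra4, from 1.51 to 3.24 (median 2.10). The ratio of a synaptic to an extrasynaptic alpha, Gabra2 to Gabra5, ran from 0.134 to 0.757, and that of the cluster neighbours Gabra2 to Gabra4 from 0.228 to 1.12. Each of the 4 ratios was set against vehicle in 6 treated groups by a two-sided exact permutation test on log2 count ratios, 4 against 4, for which the smallest possible p is 0.0286. Of these 24 tests 0 had a p under 0.05, the lowest p was 0.257 and all were 1 after adjustment, with differences of -0.75 to 0.32 log2 units. For any adjusted p under 0.05, most of the 24 tests would have had to reach that smallest p together. The adjusted result could thus not show a change in 1 or a few ratios.

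Genes outside the family whose pattern over 28 libraries was most like that of a member were ranked by Spearman rho among 13791 named genes. For Gabra3 these were Dnajc5, a chaperone of synaptic vesicles, Tub and Gas7, at 0.980, 0.974 and 0.973. In all 515 genes were above 0.9, and these 3 had a rho of 0.976, 0.958 and 0.967 with the length tilt, which they shared with Gabra3. For Gabra2 they were Pkia, Ice1 and Crim1 (0.952, 0.950 and 0.950, with 236 genes above 0.9), and for Gabrb2 Bdp1, Stxbp5l and Slc9a7 (0.953, 0.951 and 0.949, with 96).

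The other 4 members had fewer genes as alike. For Gabra4 the leading genes were Gucy1a3 and Gucy1b3, which encode the subunits of the nitric oxide receptor guanylyl cyclase, and Ogt, at 0.860, 0.812 and 0.776, with 0 genes above 0.9. After subtraction of group means they stood at 0.854, 0.866 and 0.715. For Gabrd they were Zfp385a, the calcium sensor gene Cabp1 and the complexin gene Cplx1 (0.911, 0.893 and 0.892, with 1 gene above 0.9). For Gabrb1 they were Grin2b, an NMDA receptor subunit, Fbxw7 and Fam160a2 (0.729, 0.669 and 0.662), and for Gabra5 Cd200, Ptprr and Cpt1b (0.660, 0.633 and 0.621).

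The other genes of GABA signalling were followed as lists. None of their genes was called in any comparison with vehicle. Of the other subunits, 10 of 12 were tested, and their median log2 fold change against vehicle was -0.12 and -0.25 with psilocybin at 1 and 3 mg/kg, -0.15 and -0.02 with ketanserin, and 0.01 and 0.10 with the combination. The same medians of the 7 members were -0.07 and -0.09, 0.03 and 0.09, and 0.14 and 0.14, beside -0.01, -0.01, -0.02, -0.02, -0.01 and -0.02 over all genes tested. Of the 24 tested genes of receptor anchoring and trafficking, the medians ran from -0.07 to 0.06. Of them 9 and 8 lay above 0 with psilocybin at 1 and 3 mg/kg, 13 and 16 with ketanserin, and 12 and 15 with the combination, where 47.5, 47.8, 44.2, 45.4, 46.9 and 46.4% of all genes did.

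The 8 genes of GABA synthesis, vesicular loading, uptake and breakdown had medians of -0.05 and -0.14 with psilocybin at 1 and 3 mg/kg, -0.12 and -0.08 with ketanserin, and -0.09 at both doses of the combination. Of the 8 genes, 5, 8, 7, 7, 7 and 6 lay below 0 in that order, in comparisons that share the vehicle libraries. The 7 tested of 8 genes of the chloride gradient, the transporters and kinases that set whether GABA inhibits, had medians of -0.04, -0.18, -0.07, 0.06, 0.08 and 0.02, with 4, 7, 5, 1, 1 and 3 below 0. With psilocybin at 3 mg/kg, where all genes of both lists lay below 0, none of them had an unadjusted p under 0.05. The summed CPM of the chloride list had a Spearman rho of 0.949 with the length tilt, and of the GABA supply list 0.818, and the part of the tilt in these medians was not tested. The 6 tested of 7 neurosteroid synthesis genes had medians of 0.07, -0.03, -0.12, -0.30, -0.05 and -0.29 in the same order, and their sum had a rho of -0.893 with the tilt. The GABA-B receptor list was in the table with 2 of 5 genes, at medians of -0.09 to 0.12.

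By the rule for named genes, the 2 genes of these lists with the lowest unadjusted p were taken for each treated group. With psilocybin at 1 mg/kg they were the subunit genes Gabrp and Gabrr3, at under 1 CPM on average in both groups (unadjusted p 0.0626 and 0.104). At 3 mg/kg they were Mdga1, which encodes a neuroligin-binding restraint on synapse formation, at -0.52 (p 0.0254), and Hap1, a trafficking adaptor, at 0.37 (p 0.0537). With ketanserin Nlgn2, the adhesion protein of inhibitory synapses, was among them at both doses, at 0.22 (p 0.0407) and 0.20 (p 0.0608). Its CPM was 359 to 429 at 1 mg/kg against 303 to 346 in vehicle. The share of all genes whose groups did not overlap in that comparison was not computed. At 1 mg/kg the other was Gabbr1, a GABA-B receptor subunit gene, at 0.11 (p 0.114).

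With the combination at 1 mg/kg they were Gabra6 and Oxsr1, a kinase of chloride transporters, the latter at 0.18 (unadjusted edgeR p 0.150). Gabra6 had a mean of 0.973 ± 0.382 against 0.444 ± 0.0951 CPM in vehicle (SD, n = 4 each, unadjusted edgeR p 0.0715). At 3 mg/kg they were Gabrp, at 0 to 0.263 against 0.0676 to 1.49 CPM (p 0.0165), and Slc32a1, the vesicular GABA transporter, at -0.24 (p 0.0657). All of these had adjusted p-values of 0.997 to 1 in edgeR.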

How the data were processed

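The members and gene lists were chosen with earlier results of these data known. The authors deposited raw counts of reads per gene, with the gene length in bases, and FPKM values per gene for the same 28 libraries, per the file headers. Libraries were directional and made from poly-A RNA, per the labels' protocols. The submitters' processing notes name HISAT2 2.0.5, StringTie 1.3.3b, featureCounts 1.5.0-p3 and build rn6 without their roles. The sources used here do not state how counting treated strand, so reads of overlapping or antisense genes could be shared. Transcripts with no gene name (1.99 to 4.46% of counts) stayed in totals and tests.

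Counts were fitted in R 4.3.3 with edgeR 4.0.16 (filterByExpr by group, TMM scaling, robust quasi-likelihood F test, two-sided) with 1 coefficient per group over all 28 libraries, leaving 21 residual degrees of freedom. Benjamini-Hochberg adjustment ran over 17404 genes. CPM values are counts relative to the TMM-scaled library. FPKM values, used for levels between genes, are the authors'. DESeq2 1.42.0 and limma 3.58.1 (on log2(FPKM + 0.1)) were alternatives, beside other scaling, filter and sample choices. Permutation tests used scipy 1.17.1. The edgeR script was tested on simulated counts. Named genes were all 7 members, the 2 genes of the other GABA lists with the lowest unadjusted p against vehicle, any such gene called, and for each member the 3 genes with the highest Spearman rho. A gene that the rule names for ketanserin at 3 mg/kg is not reported here. Promoter letters are from RefSeq's table (GRCr8), and no genome of build rn6 was used.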

Additional observations from a re-analysis of the deposited data

Results flagged for a closer look

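Among the 49 sets of 4 libraries formed by 7 genes in 7 groups, Gabrb2 in vehicle had 1 library far from the other 3. Vehicle replicate 3 stood at 28.9 CPM against 5.87 to 9.67 CPM. The gap to its nearest neighbour was 0.835 of the range of the group, just above Dixon's 95% critical value for 4 libraries. Chance alone passes that value in about 5% of such sets. The same library had a length tilt of 0.190, while vehicle replicate 1 had a tilt of 0.226 with Gabrb2 at 9.67 CPM. The part of the tilt in the value of replicate 3 was not tested.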

How the results depend on the processing

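No member of the 7 was called under any of the 325 alternative counts of members called (DESeq2, limma on log2(FPKM + 0.1), DESeq2-type size factors, no filter on low counts, the groups compared alone, each library left out in turn, and the length tilt as a covariate, which was added after the data were seen), and the lowest adjusted p was 0.304, for Gabrb2 in the combination against psilocybin at 3 mg/kg without replicate 2 of the combination group. Directions were less settled. Of 126 log2 fold changes, 40 changed sign with the tilt as a covariate and 13 with limma on FPKM, and 181 of 1288 did so when 1 library was left out; the largest of the reported values that changed sign was 0.78. With that covariate 10 of 133 tests had an unadjusted p under 0.05 and 0 were called. Size factors in place of TMM moved the median of all genes by at most 0.0104 log2. No paired analysis was possible because the labels number no replicates. With 4 libraries a group the spread between libraries, not depth, limits what can be seen.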
